A study of Mus musculus with 12 samples.

Results

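Anti-CD3 stimulation was examined in CD8+ T cells that received the interferon IFN-4a at the same time. The comparison was formed from the array titles: 3 arrays of cells given anti-CD3 with IFN-4a were set against 3 arrays of cells given PBS with IFN-4a, so 6 of the 12 arrays of the series were used. All cells were CD8+ lymphocytes from the spleens of C57BL/6 mice, purified with a CD8a+ isolation kit, incubated for 6 h at 37 °C and lysed for total RNA. Both groups carried IFN-4a and differed in the antibody against CD3 or the PBS mock treatment, and they are called stimulated and mock arrays here. The other 6 arrays, anti-CD3 alone and PBS alone, each with 3 arrays, had no IFN-4a and were used for the change that anti-CD3 made without it. The labels give no age, sex, dose or animal for any group, and they do not say what IFN-4a is beyond its name in a series on type I interferon.

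CD8+ T cells recognise antigen through the T cell receptor, whose CD3 chains carry the signal into the cell, and an antibody against CD3 engages these chains without antigen. The signal runs through calcium and NFAT, MAP kinases and AP-1, and NF-kappaB, and within hours it turns on early transcription factors, cytokines, chemokines and growth genes while genes of the quiet state are turned down. Type I interferon acts through its own receptor and the kinases JAK1 and TYK2 on antiviral genes that carry interferon-stimulated response elements (ISRE). Interferon gamma, which activated CD8+ T cells secrete, acts through another receptor on genes with gamma-activated sites (GAS) and shares many target genes with type I interferon.

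The measurements were array values of 22180 genes on a log scale, taken as log2 although no source used here gives the base; with a natural log every fold below would be larger. The authors had centred each row on its median over the 12 arrays, so a value of 0 is that median and no value gives an absolute level or can be compared between genes. Across all rows, Pearson's r was 0.608 to 0.746 between the stimulated arrays, 0.702 to 0.797 between the mock arrays and -0.478 to -0.339 between arrays of the 2 groups. Centring each row pushes r between unlike groups below 0, so the negative sign says nothing about uncentred levels. The decimal steps of the values show which rows reached 8 on their top 6 arrays prior to the authors' centring. All 5 measured CD8 T cell markers did, and no measured marker of NK, B or CD4 T cells, granulocytes, myeloid, or erythroid cells and platelets did. Arrays of the same group carry replicate numbers but no day or animal, so they may be technical repeats, and each p-value measures only the spread between these arrays. In a bulk sample, fewer cells of a type and less RNA per cell cannot be told apart.

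On the interferon background anti-CD3 changed 6134 of 22180 genes, 27.7% of those tested, by limma's moderated test at a Benjamini-Hochberg adjusted p under 0.05. Of these 2833 rose (12.8%) and 3301 fell (14.9%). List counts of this comparison given below are to be read beside these shares. Increases were the larger changes, with 580 genes at least 2-fold higher (2.61%) and 68 at least 2-fold lower (0.307%). The median change was 0.53 among raised and -0.38 among lowered genes, and -0.04 over all genes. The stimulated arrays lay wholly above the mock arrays for 15.9% of genes and wholly below for 22.4%.

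The 15 largest increases were chosen among genes whose groups did not overlap, so in each the lowest stimulated array lay above the highest mock array. Ccl3 (Entrez gene 20302), which encodes an inflammatory chemokine, read 2.96, 2.82 and 2.88 on the stimulated and -3.17, -2.82 and -4.10 on the mock arrays. It rose 76.2-fold (log2 6.25, SE 0.22, limma adjusted p = 6.71e-11), the largest change of any gene tested. Xcl1 (Entrez gene 16963), the gene of a chemokine for cross-presenting dendritic cells, read 2.46, 2.38 and 2.44 against -2.64, -2.38 and -3.29. Its increase was 36.6-fold (log2 5.19, SE 0.16, limma adjusted p = 2.86e-11). In both genes the stimulated arrays lay close together and the mock arrays were spread more widely, with no overlap. Rgs16 at 4.68, a regulator of G protein signalling, Sema7a at 4.51, a semaphorin gene, Ccl4 at 4.36, another inflammatory chemokine, Tnfsf14 at 4.32, the LIGHT gene, Crtam at 4.24, an adhesion receptor gene of activated T cells, Slamf1 at 3.86, a costimulatory receptor gene, and Spry1 at 3.53, an inhibitor of MAP kinase signalling, were among the others on the log2 scale.

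**Figure D1:**
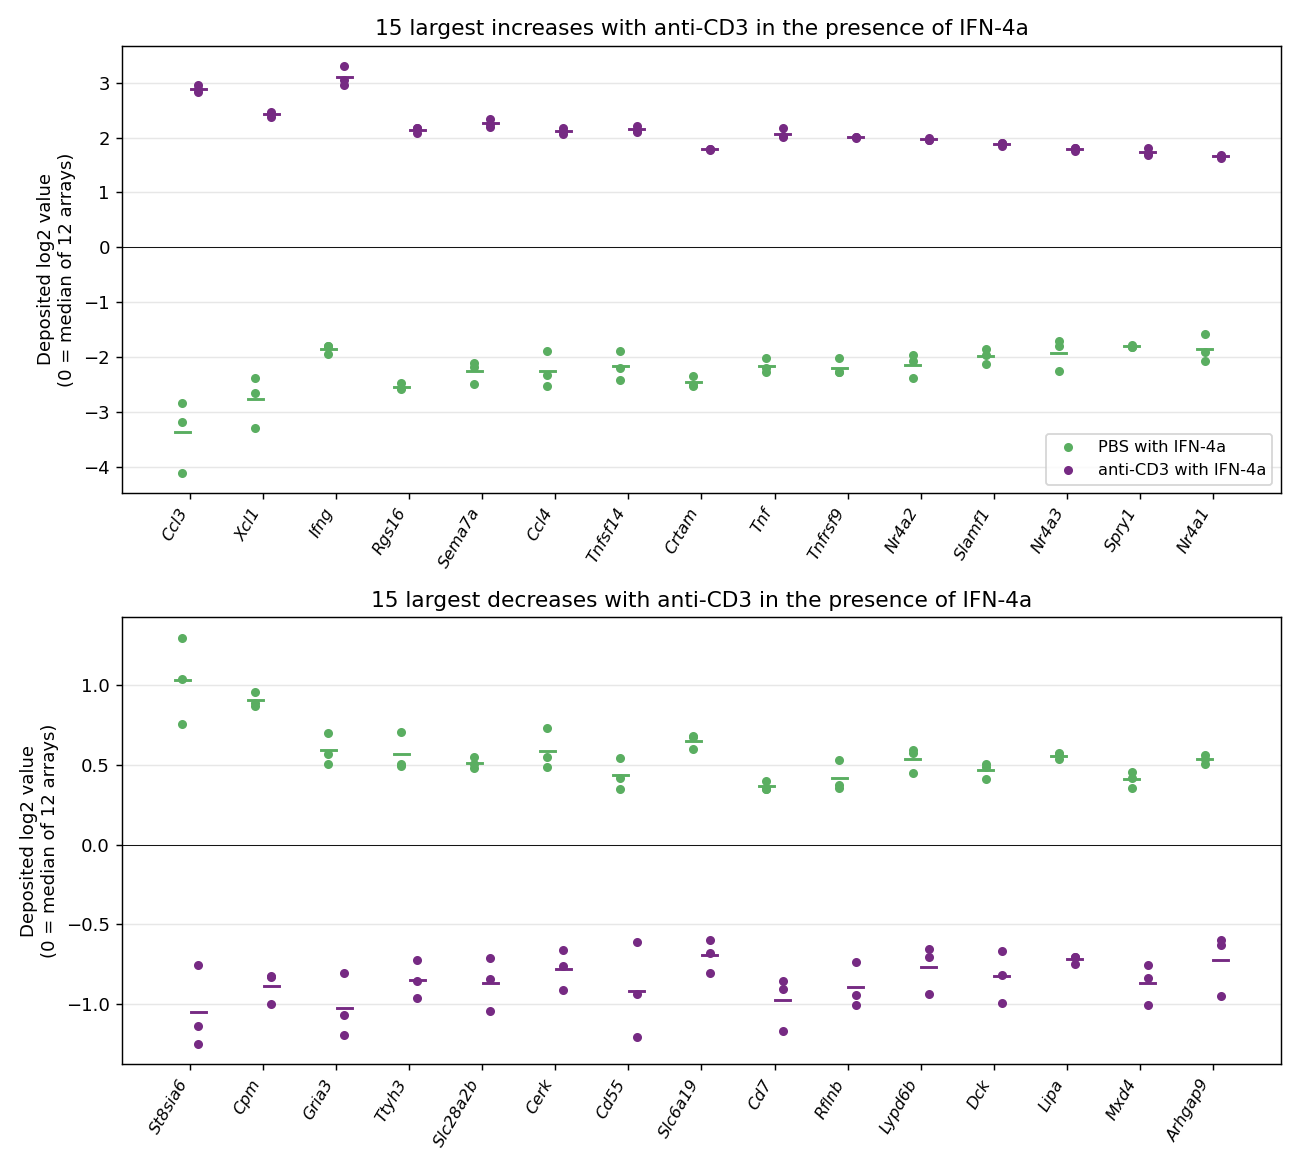
Deposited log2 values (0 is the median of the 12 arrays) of the 15 genes with the largest called increases (top) and decreases (bottom); points are single arrays, bars are means of 3 arrays, green is PBS with IFN-4a and purple anti-CD3 with IFN-4a. The groups do not overlap for any of the 30 genes, which the choice of genes required, and the increases, from 3.52 to 6.25, are larger than the decreases, from -2.07 to -1.26.

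Transcription factors of early activation were raised together. Of 19 measured, 14 rose and none fell, against 12.8% of all genes higher, and the median change of the list was 1.48 (0.65 with the row of highest mean value per gene in place of the mean of rows, and 2.70 over the 16 members with a row at 8 or above). Row-centred values hold no level, so the row of highest mean is not the brightest row. The filter at 8 goes by the 6 highest arrays, which for genes raised by anti-CD3 can be the anti-CD3 arrays. The median of 2.70 is therefore no separate support. Nr4a1 (Entrez gene 15370), an orphan nuclear receptor gene and a common reporter of T cell receptor signals, read 1.67, 1.64 and 1.68 on the stimulated and -1.91, -1.58 and -2.08 on the mock arrays. Its increase was 11.4-fold (log2 3.52, SE 0.10, limma adjusted p = 1.53e-11), and its relatives Nr4a2 and Nr4a3 rose by 4.11 and 3.70. Egr2 (Entrez gene 13654), a zinc finger factor that restrains activation, read 1.44, 1.51 and 1.5 against -1.48, -1.54 and -1.44, an increase of 7.84-fold (log2 2.97, SE 0.06, limma adjusted p = 3.75e-13). Irf4, which scales with the strength of the receptor signal, rose by 2.98 and Fos by 1.48. Jun rose by 0.33, and Nfatc2, Batf, Batf3, Jund and Junb did not pass, from -0.20 to 0.23. The spread among these factors was wide, with the 3 Nr4a genes at the top. Among NF-kappaB subunits and inhibitors 6 of 11 rose and 3 fell. Nfkbid at 2.14 and Rel at 1.17 rose, and the inhibitor gene Nfkbia fell by 0.24.

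Surface receptors of activation rose in 11 of 13 measured genes, with a median of 0.64. Tnfrsf9 (Entrez gene 21942), the costimulatory receptor 4-1BB, read 2.01, 2.01 and 1.99 on the stimulated and -2.27, -2.02 and -2.27 on the mock arrays, an increase of 18.2-fold (log2 4.19, SE 0.10, limma adjusted p = 1.31e-12). Il2ra (Entrez gene 16184), the alpha chain of the interleukin-2 receptor, read 1.47, 1.32 and 1.36 against -1.32, -1.40 and -1.99 and rose 7.75-fold (log2 2.95, SE 0.13, limma adjusted p = 6.31e-10). Cd69 (Entrez gene 12515), an early marker that holds cells in lymphoid tissue, read 0.72, 0.67 and 0.65 against -0.39, -0.36 and -0.70. It rose 2.24-fold (log2 1.16, SE 0.09, limma adjusted p = 3.6e-07), a smaller change than those of Il2ra and Tnfrsf9, and the groups of all 3 genes did not overlap. Tfrc, the transferrin receptor gene, rose by 2.82, and Tnfrsf18, the GITR gene, was the member that fell, by 0.38. Coinhibitory genes rose in 9 of 13, led by Cd160 at 3.34 and Pdcd1, the PD-1 gene, at 2.67, while Ctla4 fell by 0.65. Among 13 cytokine receptors 5 rose and 7 fell. Il12rb1 at 2.10 and Il15ra at 1.96 rose, and Il6ra at -0.86, Il18r1 at -0.79 and Il7r at -0.67 fell.

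Of 20 T cell cytokine genes 11 rose and none fell (1 did without the third mock array), and the other 9 lay between -0.15 and 0.19. Ifng (Entrez gene 15978), the interferon gamma gene, read 3.05, 2.95 and 3.30 on the stimulated and -1.94, -1.80 and -1.80 on the mock arrays. The increase was 30.8-fold (log2 4.94, SE 0.09, limma adjusted p = 3.75e-13). Tnf (Entrez gene 21926), the tumor necrosis factor gene, read 2.01, 2.02 and 2.17 against -2.01, -2.20 and -2.27 and rose 18.7-fold (log2 4.22, SE 0.08, limma adjusted p = 3.75e-13). In both genes every stimulated array lay far above every mock array. Il2 (Entrez gene 16183), the growth factor gene of T cells, read 1.01, 1.33 and 1.63 against -1.24, -1.19 and -1.47, an increase of 6.16-fold (log2 2.62, SE 0.14, limma adjusted p = 3.51e-09). Lta, the lymphotoxin gene, rose by 2.40, Il3 by 2.30 and Lif by 2.02, and Il17a by 0.91. Chemokine genes rose in 6 of 11, and Ccl5, which resting memory CD8+ T cells already transcribe, fell by 0.59. Ligand genes of the TNF superfamily rose in 6 of 11, with Tnfsf8 at 1.75 and Tnfsf11 at 1.54. In this list 3 fell, but 1 did when the second or the third stimulated or the first or second mock array was left out.

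Genes of cytotoxic granules and their serpin inhibitors rose in 7 of 15, and none fell (1 did without the first stimulated or the third mock array). Gzmb (Entrez gene 14939), the granzyme B gene, read 3.31, 2.48 and 2.40 on the stimulated and -0.31, -0.29 and -0.60 on the mock arrays. It rose 8.75-fold (log2 3.13, SE 0.24, limma adjusted p = 1.8e-07), with the first stimulated array above the other two and no overlap between the groups. Prf1, the perforin gene, rose by 1.69, and the protective inhibitors Serpinb6b and Serpinb9 by 1.99 and 1.77. Gzmc rose by 1.13, whereas Gzma at -0.19 and Gzmk at -0.34 did not pass. Among effector and memory transcription factors 5 of 11 rose, with Tbx21, the T-bet gene, at 2.20 and Eomes at 2.02.

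**Figure D2:**
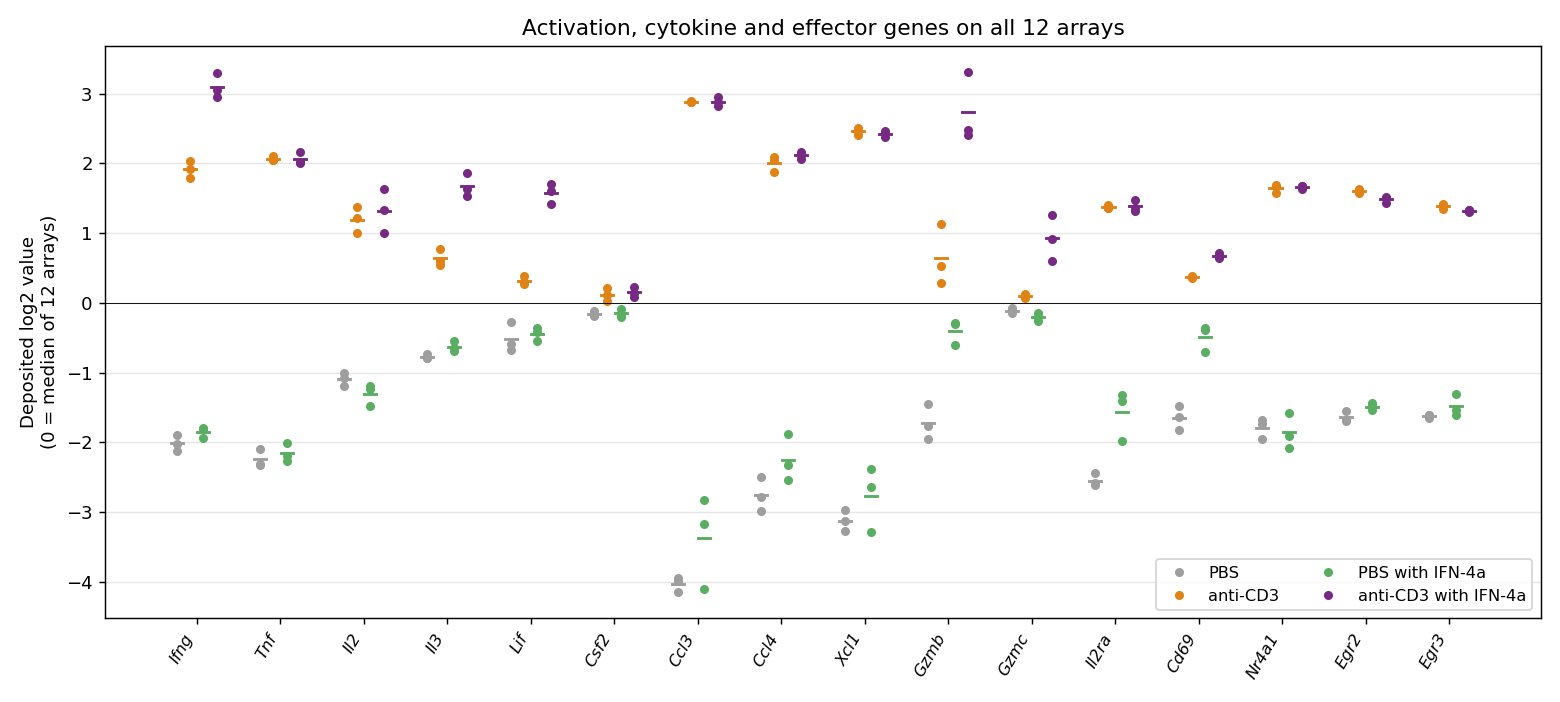
Deposited log2 values (0 is the median of the 12 arrays) of activation, cytokine, chemokine and granzyme genes on all 12 arrays; points are single arrays, bars are means of 3 arrays, and colours are the 4 groups. Ifng, Il3, Lif and Gzmc stand higher on every anti-CD3 with IFN-4a array than on any anti-CD3 array, while Tnf, Xcl1, Nr4a1 and Il2ra overlap between these groups.

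Growth genes rose together. All 32 measured ribosome biogenesis genes rose, 28 of them at least 2-fold, with a median of 1.75 and a range of 0.46 to 2.67. Rrp1b (Entrez gene 72462), a nucleolar gene, read 1.17, 1.16 and 1.17 on the stimulated and -1.49, -1.49 and -1.53 on the mock arrays and rose 6.37-fold (log2 2.67, SE 0.05, limma adjusted p = 3.64e-13). Aminoacyl-tRNA synthetase genes rose in 17 of 18 (median 0.98, highest Iars at 1.59), and chaperone and endoplasmic reticulum stress genes in 19 of 21 (median 0.96, highest Hspd1 at 2.06). Amino acid transporter genes rose in 7 of 10, led by Slc7a5, a carrier of large neutral amino acids, at 2.61 and Slc7a1 at 2.21. Glycolysis genes rose in 12 of 16, led by Hk2, a hexokinase gene, at 2.52, and the glucose carrier gene Slc2a3 fell by 0.36. Without the first mock array 2 glycolysis genes fell. In cholesterol and fatty acid synthesis 11 of 19 rose, with Cyp51 at 1.94 and Fasn at 1.85. Changes in DNA replication and mitosis were smaller. Of 26 replication genes 7 rose and 4 fell, none by 2-fold, beside 12.8% and 14.9% of all genes. Of 9 mitosis genes none passed the threshold (1 fell without the third stimulated or the second mock array), and none of them had a row at 8 or above, against 14 rows in the replication list. Genes of the G1 phase split, with 6 of 16 higher and 6 lower, among them Cdkn1a, the p21 inhibitor gene, at 2.73 and Cdk6 at 1.25 on the higher side and Rbl2 at -0.87 on the lower.

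Feedback on receptor signalling was raised in part. MAP kinase phosphatase and Sprouty genes rose in 8 of 12, with Dusp4 at 2.05, and Dusp1 fell by 0.49, the 1 lowered member (2 without the third array of anti-CD3 alone). Among genes of T cell receptor signalling and its brakes 9 of 24 rose and 9 fell, beside 12.8% and 14.9% of all genes. Ubash3b, a phosphatase gene that restrains the receptor, at 2.27 and Cd5, an inhibitory co-receptor gene, at 1.48 rose, and Sla2, an adaptor gene that promotes receptor loss, at -1.02 and Themis at -0.90 fell. Of the CD8 T cell markers Cd8b1 fell by 0.32, Cd3g by 0.33 and Cd3d by 0.41, while Cd8a at 0.06 (95% interval -0.05 to 0.16) and Cd3e at -0.04 (-0.15 to 0.08) did not pass. In the BCL2 family 5 of 10 rose, among them Bid at 0.70 and Bcl2 at 0.60, and 3 rose without the second stimulated or the first mock array. Among caspases and death regulators 3 of 11 rose and 4 fell, beside 12.8% and 14.9% of all genes.

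The largest decreases were smaller than the largest increases and came from genes of varied function. St8sia6 (Entrez gene 241230), a sialyltransferase gene, read -1.14, -1.25 and -0.75 on the stimulated and 1.03, 0.75 and 1.29 on the mock arrays and fell 4.21-fold (log2 -2.07, SE 0.18, limma adjusted p = 7.16e-07). Cpm (Entrez gene 70574), a carboxypeptidase gene, read -1.0, -0.82 and -0.83 against 0.89, 0.87 and 0.95 and fell 3.45-fold (log2 -1.79, SE 0.10, limma adjusted p = 5.3e-09). No stimulated array of either gene reached a mock array. Other large decreases were Gria3 at -1.61, a glutamate receptor subunit gene, Ttyh3 at -1.41, Slc28a2b at -1.37, a gene of a nucleoside carrier family, Cerk at -1.37, the ceramide kinase gene, Cd55 at -1.35, an inhibitor of complement, Cd7 at -1.34, Dck at -1.29, which starts deoxynucleoside salvage, Lipa at -1.27, a lysosomal lipase gene, and Mxd4 at -1.27, a transcriptional repressor gene.

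Quiescence factors fell in 12 of 15, and none rose, against 14.9% of all genes lower, with a median of -0.46. Cdkn1b (Entrez gene 12576), the p27 inhibitor of the cell cycle, read -0.79, -0.65 and -0.41 on the stimulated and 0.51, 0.52 and 0.41 on the mock arrays and fell 2.14-fold (log2 -1.10, SE 0.08, limma adjusted p = 1.67e-07). Pik3ip1, a brake on phosphoinositide 3-kinase, fell by 1.04, Klf3 by 0.92 and Klf2, which maintains homing receptors, by 0.62. Lymphoid homing and egress receptors fell in 6 of 9. S1pr1 (Entrez gene 13609), the receptor for exit from lymphoid organs, read -0.77, -0.57 and -0.54 against 0.41, 0.44 and 0.44 and fell 2.08-fold (log2 -1.05, SE 0.07, limma adjusted p = 3.04e-08). Neither gene had overlapping groups. Itga4 fell by 1.01 and Ccr7 by 0.48, and Itgal, the LFA-1 alpha chain gene, rose by 0.62.

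Markers of other cell types moved little beside these changes. In B cell markers Cd79b fell by 0.43 and Cd79a by 0.21, 2 of 7, beside 14.9% of all genes lower. The call of Cd79a ended without any stimulated array, the first or the third mock array or the third array of anti-CD3 alone (highest limma adjusted p = 0.129, log2 -0.18), and under quantile normalization or median centring. The list's mean was -0.05 to -0.02 on the stimulated and 0.05 to 0.09 on the mock arrays. Among CD4 T cell markers Cd40lg rose by 0.74 and Ikzf4 fell by 0.40, among NK cell markers Klre1 fell by 0.28, and among myeloid markers Itgax rose by 0.41. None of 7 granulocyte markers (1 fell without the first array of anti-CD3 alone) and none of 3 erythroid and platelet markers passed. The part of these cells in the changes above was not tested.

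The genes that interferon induces formed a different picture. Over the lists of RNA-binding effectors, other effectors, GTPases, sensors and ISG15 genes, which are 5 of the 40 used, 66 of 79 interferon-induced antiviral genes were measured, and on the interferon background anti-CD3 raised 12 and lowered 21 of them, beside 12.8% and 14.9% of all genes, while 33 did not pass. Quantile normalization gives every array the same distribution of row-centred values. It cannot tell a processing effect from a real difference between groups in that distribution. Under quantile normalization of the deposited values 13 were higher, 36 lower and 17 not called. Their median change was -0.105, and 64 of the 66 lay within 1 log2 unit of 0. The range was -0.52 to 1.69. These genes were taken from lists, and not all of them were raised by IFN-4a in PBS cells. There IFN-4a raised 13 of 14 RNA-binding effectors, 13 of 13 GTPases and 9 of 9 ISG15 genes, beside 4.25% of all genes. It raised 14 of 18 other effectors, where 1 was lowered, and 9 of 12 sensors. The upstream sequences of 4 such genes are shown with that of Ifng because their anti-CD3 changes with and without IFN-4a, given below, stand for the different patterns. Each runs from 250 bases before to 50 bases after the gene's start, 5′ to 3′ on the gene's strand, from RefSeq on GRCm38.p6: Ifit1 from chr19:34640639-34640938 (+), Ifitm3 from chr7:141010695-141010994 (-), Cxcl10 from chr5:92348840-92349139 (-), Gbp5 from chr3:142496684-142496983 (+) and Ifng from chr10:118440796-118441095 (+).
Ifit1 promoter: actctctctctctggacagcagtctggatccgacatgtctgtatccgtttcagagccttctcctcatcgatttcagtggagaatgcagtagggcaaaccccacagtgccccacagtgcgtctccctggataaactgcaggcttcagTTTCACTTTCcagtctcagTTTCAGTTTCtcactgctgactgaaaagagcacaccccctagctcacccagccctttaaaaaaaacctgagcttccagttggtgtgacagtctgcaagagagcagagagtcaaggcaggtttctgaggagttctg
Ifitm3 promoter: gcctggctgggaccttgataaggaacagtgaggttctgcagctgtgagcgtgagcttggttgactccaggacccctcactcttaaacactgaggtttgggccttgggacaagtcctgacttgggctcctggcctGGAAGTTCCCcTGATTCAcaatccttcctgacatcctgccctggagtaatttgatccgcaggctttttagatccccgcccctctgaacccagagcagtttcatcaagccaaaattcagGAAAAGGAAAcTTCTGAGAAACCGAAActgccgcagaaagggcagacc
Cxcl10 promoter: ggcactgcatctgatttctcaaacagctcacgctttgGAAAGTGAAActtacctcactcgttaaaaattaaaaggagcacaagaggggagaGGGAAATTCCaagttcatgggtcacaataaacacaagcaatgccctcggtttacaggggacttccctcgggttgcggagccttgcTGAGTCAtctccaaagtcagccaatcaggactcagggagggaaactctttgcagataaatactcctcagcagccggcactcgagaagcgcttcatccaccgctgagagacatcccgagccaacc
Gbp5 promoter: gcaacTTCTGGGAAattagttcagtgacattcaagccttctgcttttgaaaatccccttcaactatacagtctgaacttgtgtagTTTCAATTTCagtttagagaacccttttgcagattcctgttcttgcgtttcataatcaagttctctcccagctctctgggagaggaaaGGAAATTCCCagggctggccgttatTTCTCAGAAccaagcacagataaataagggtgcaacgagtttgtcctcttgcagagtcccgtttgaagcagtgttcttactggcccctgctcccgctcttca
Ifng promoter: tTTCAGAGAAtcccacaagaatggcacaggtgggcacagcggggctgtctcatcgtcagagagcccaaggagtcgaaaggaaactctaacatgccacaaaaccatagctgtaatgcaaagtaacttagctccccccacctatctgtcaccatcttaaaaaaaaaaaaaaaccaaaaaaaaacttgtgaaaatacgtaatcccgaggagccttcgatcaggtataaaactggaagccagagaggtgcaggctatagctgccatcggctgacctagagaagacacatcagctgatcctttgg
Capitals mark letters that match 1 of 4 patterns on either strand: ISRE as GAAA and GAAA with any 2 bases between, GAS as TTC and GAA with any 3 between, AP-1 as TGA and TCA with any 1 between, and NF-kappaB as GGGA and TTCC with any 2 between.

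In the Ifit1 sequence the capitals are 2 ISRE matches, which begin 104 and 85 bases before the start. Ifitm3 holds an NF-kappaB match 116 and an AP-1 match 105 bases before the start, and beyond the start 2 ISRE matches, the second overlapping a GAS match. Cxcl10 has 1 match each of ISRE, NF-kappaB and AP-1, at 213, 159 and 74 bases before the start. Gbp5 has GAS matches at 245 and 52, an ISRE match at 165 and an NF-kappaB match at 77 bases before the start, and Ifng 1 GAS match at 249. Over all 32851 promoters of this length in the table, 3.44% held the ISRE pattern, 8.3% GAS, 7.81% AP-1 and 1.47% NF-kappaB. The counts that follow are of genes with a match in any of their promoters, which is another unit than a share of promoters. The ISRE pattern was in 6 of the 6 interferon-inducible GTPase genes with a promoter in the table, in 6 of 12 RNA-binding antiviral genes, 7 of 15 other effectors, 3 of 7 sensors and 2 of 6 ISG15 and PARP genes. It was also in 4 of 14 cytotoxic granule genes, 4 of 15 genes of MHC class I presentation, 1 of 15 activation transcription factor genes and 1 of 17 cytokine genes. A match describes letters in this window and is not a measured site.

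Antiviral effectors that bind RNA showed small changes. Of 14 measured, 7 fell, 1 rose and 6 did not pass, with a median of -0.23. Ifit1 (Entrez gene 15957), which binds viral RNA, read 1.88, 1.92 and 1.87 on the stimulated and 2.29, 2.30 and 2.18 on the mock arrays, and fell 1.28-fold (log2 -0.36, SE 0.07, limma adjusted p = 0.00136). The groups did not overlap, and both lay far above the PBS arrays without IFN-4a, at -2.98, -2.89 and -2.84. Ifit2 (Entrez gene 15958), of the same family, read 0.41, 0.49 and 0.33 against 0.83, 0.82 and 0.92 and fell 1.36-fold (log2 -0.45, SE 0.09, limma adjusted p = 0.00142). Zc3hav1, the zinc finger antiviral protein gene, fell by 0.44, Oas1b by 0.41 and Oas2 by 0.30, and Oas3 at -0.13 and Oasl2 at -0.10 did not pass (-0.34 and -0.36, both called, under quantile normalization). Oas1g was the member that rose, by 0.55. Several of these genes have near-identical relatives, so their probes may read more than 1 gene.

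Among 18 other antiviral effectors 6 fell, 2 rose and 10 did not pass, with a median of -0.13. Over all genes 14.9% fell and 12.8% rose. Mx1 (Entrez gene 17857), an antiviral GTPase gene, read 1.86, 2.15 and 2.13 on the stimulated and 2.23, 2.39 and 2.16 on the mock arrays. Its change was -0.21 (95% interval -0.41 to -0.02, limma adjusted p = 0.113) and did not pass, with the groups close together. Rsad2 (Entrez gene 58185), the viperin gene, read 1.92, 2.02 and 2.03 against 1.94, 1.99 and 1.89, a change of 0.05 (95% interval -0.19 to 0.28, limma adjusted p = 0.829; -0.18 under quantile normalization), and the groups overlapped. Slfn5 fell by 0.48, Slfn8 by 0.38, Slfn1 by 0.38 and Trim25, which activates the RNA sensor RIG-I, by 0.32. The exception was Ifitm3 (Entrez gene 66141), which blocks virus entry at membranes. It read 2.14, 2.25 and 2.11 on the stimulated and 0.69, 0.67 and 0.62 on the mock arrays and rose 2.85-fold (log2 1.51, SE 0.07, limma adjusted p = 1.12e-09), with no overlap.

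Interferon-inducible GTPase genes, whose products attack the vacuoles of intracellular microbes, held the other increase past 2-fold among these lists. Of 13 measured, 6 rose and none fell, with a median of 0.20. Gbp11 (Entrez gene 634650) read 1.10, 1.06 and 1.33 on the stimulated and -0.49, -0.30 and -0.79 on the mock arrays and rose 3.22-fold (log2 1.69, SE 0.15, limma adjusted p = 7.61e-07). Gbp5 (Entrez gene 229898), whose upstream sequence is shown above, read 0.34, 0.35 and 0.40 against -0.11, -0.07 and -0.47 and rose 1.5-fold (log2 0.58, SE 0.10, limma adjusted p = 0.000269). Gbp8 rose by 0.69, Iigp1 by 0.50 and Gbp4 by 0.49. Igtp at 0.20 (0.23 and called under quantile normalization), Irgm1 at 0.12, Irgm2 at 0.05 and Gbp3 at 0.09 did not pass.

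Among nucleic acid sensors 2 of 12 rose and 4 fell, beside 12.8% and 14.9% of all genes. The lowered sensors numbered 1 without the first and 2 without the second mock array, and 1 sensor rose without the first or the third stimulated array. Ddx58, the RIG-I gene, fell by 0.38, Cgas, the sensor of cytosolic DNA, rose by 0.38, and Ifih1, the MDA5 gene, at 0.05 did not pass (-0.21 under quantile normalization, also not called). Of 9 genes of ISG15 conjugation and antiviral PARPs, 4 fell and 1 rose, beside 14.9% and 12.8% of all genes. Without the second stimulated array 1 fell, none rose without the third stimulated array or any mock array, and 2 rose without the second or the third PBS array. Isg15 (Entrez gene 100038882), a ubiquitin-like modifier gene, read 1.76, 1.77 and 1.83 against 1.55, 1.39 and 1.41. Its change of 0.34 (95% interval 0.08 to 0.60) did not pass, with limma adjusted p = 0.0542, although the groups did not overlap. The alternatives put this gene on both sides, with adjusted p from 0.00283 with only the stimulated and mock arrays in the fit to 0.845 under quantile normalization, where the change was -0.04. Uba7, the activating enzyme of ISG15, fell by 0.29. Under quantile normalization the lowered genes numbered 12 of 14 RNA-binding effectors (median -0.42), 9 of 18 other effectors (median -0.30), 7 of 12 sensors (median -0.23) and 7 of 9 ISG15 and PARP genes (median -0.37), while 8 of 13 GTPase genes rose and 1 fell (median 0.23).

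**Figure D3:**
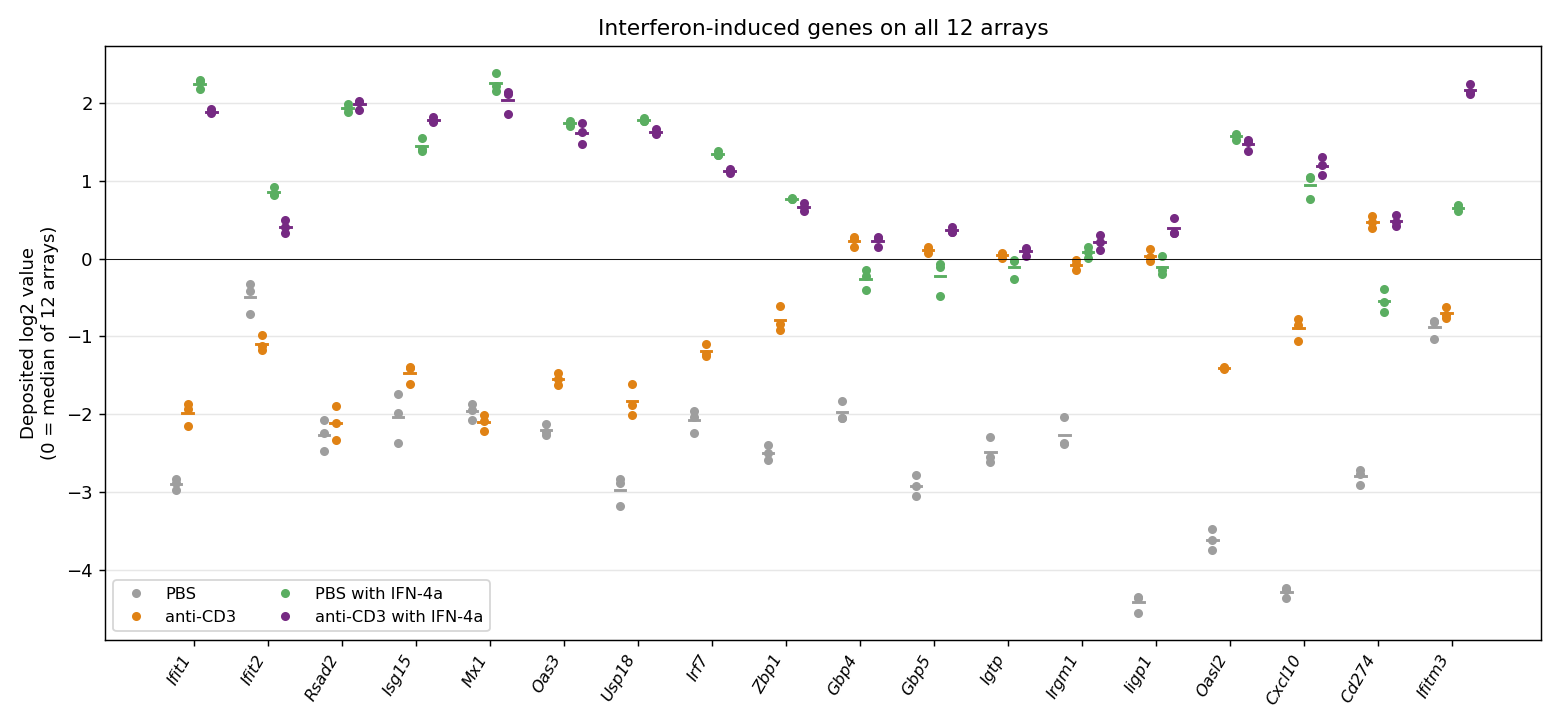
Deposited log2 values (0 is the median of the 12 arrays) of interferon-induced genes on all 12 arrays; points are single arrays, bars are means of 3 arrays, and colours are the 4 groups. From Ifit1 to Irf7 both groups with IFN-4a stand above both groups without it; from Gbp4 to Iigp1 the anti-CD3 arrays without IFN-4a lie near the IFN-4a arrays and only PBS is low; Ifitm3 is highest on the anti-CD3 with IFN-4a arrays.

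Genes of interferon signalling were lowered at the receptor. Of 18 receptors, kinases, STATs and IRFs, 10 fell and 3 rose, with a median of -0.25. Ifnar1 (Entrez gene 15975), a chain of the type I interferon receptor, read -0.36, -0.29 and -0.33 on the stimulated and 0.33, 0.29 and 0.26 on the mock arrays and fell 1.53-fold (log2 -0.62, SE 0.05, limma adjusted p = 7.02e-07). The receptor chain genes Ifngr2, Ifngr1 and Ifnar2 fell by 0.74, 0.66 and 0.27, the kinase genes Jak1 and Tyk2 by 0.46 and 0.39, and Stat5b and Stat4 by 0.62 and 0.48. All 4 measured receptor chains and both kinases of the type I receptor were thus lower. Anti-CD3 alone raised 7 and lowered 8 of the 18 genes, beside 13.8% and 18% of all genes. The change differed from that without IFN-4a for 5 of the 18, beside 0.942% of all genes. None of these 5 was a receptor chain or kinase gene. Irf7 (Entrez gene 54123), a factor that amplifies interferon production, read 1.10, 1.13 and 1.16 against 1.39, 1.33 and 1.34 and fell 1.17-fold (log2 -0.23, SE 0.07, limma adjusted p = 0.0278). That call ended when any of 5 single arrays of the stimulated and mock groups was left out, each except the third stimulated array (highest adjusted p = 0.0905, log2 -0.21, without the first mock array). Jak2 at 0.54, Stat5a at 0.57 and Irf1 at 0.37, a factor with early induction by interferon gamma, rose, and Stat2 at -0.09 did not pass (-0.32 and called under quantile normalization).

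Of 8 SOCS feedback genes 2 rose and 1 fell, beside 12.8% and 14.9% of all genes. Of them, 1 rose without the second or the third stimulated or the first mock array. None fell without the first stimulated or the third mock array. Among them Cish (Entrez gene 12700), a target of STAT5 that restrains cytokine signals, moved most. It read 1.03, 1.25 and 1.03 against -0.49, -0.58 and -0.53 and rose 3.12-fold (log2 1.64, SE 0.08, limma adjusted p = 1.36e-09). In MHC class I presentation 5 of 18 rose and 1 fell, beside 12.8% and 14.9% of all genes. None fell without the first stimulated or the first mock array. Erap1, a peptide trimming enzyme gene, rose by 0.80 and the chaperone genes Canx, Calr and Pdia3 by 0.74, 0.50 and 0.32, whereas B2m at -0.02, H2-K1 at -0.08, Tap2 at -0.04 and Nlrc5, the transactivator of the class I genes, at 0.06 did not pass.

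**Figure D4:**
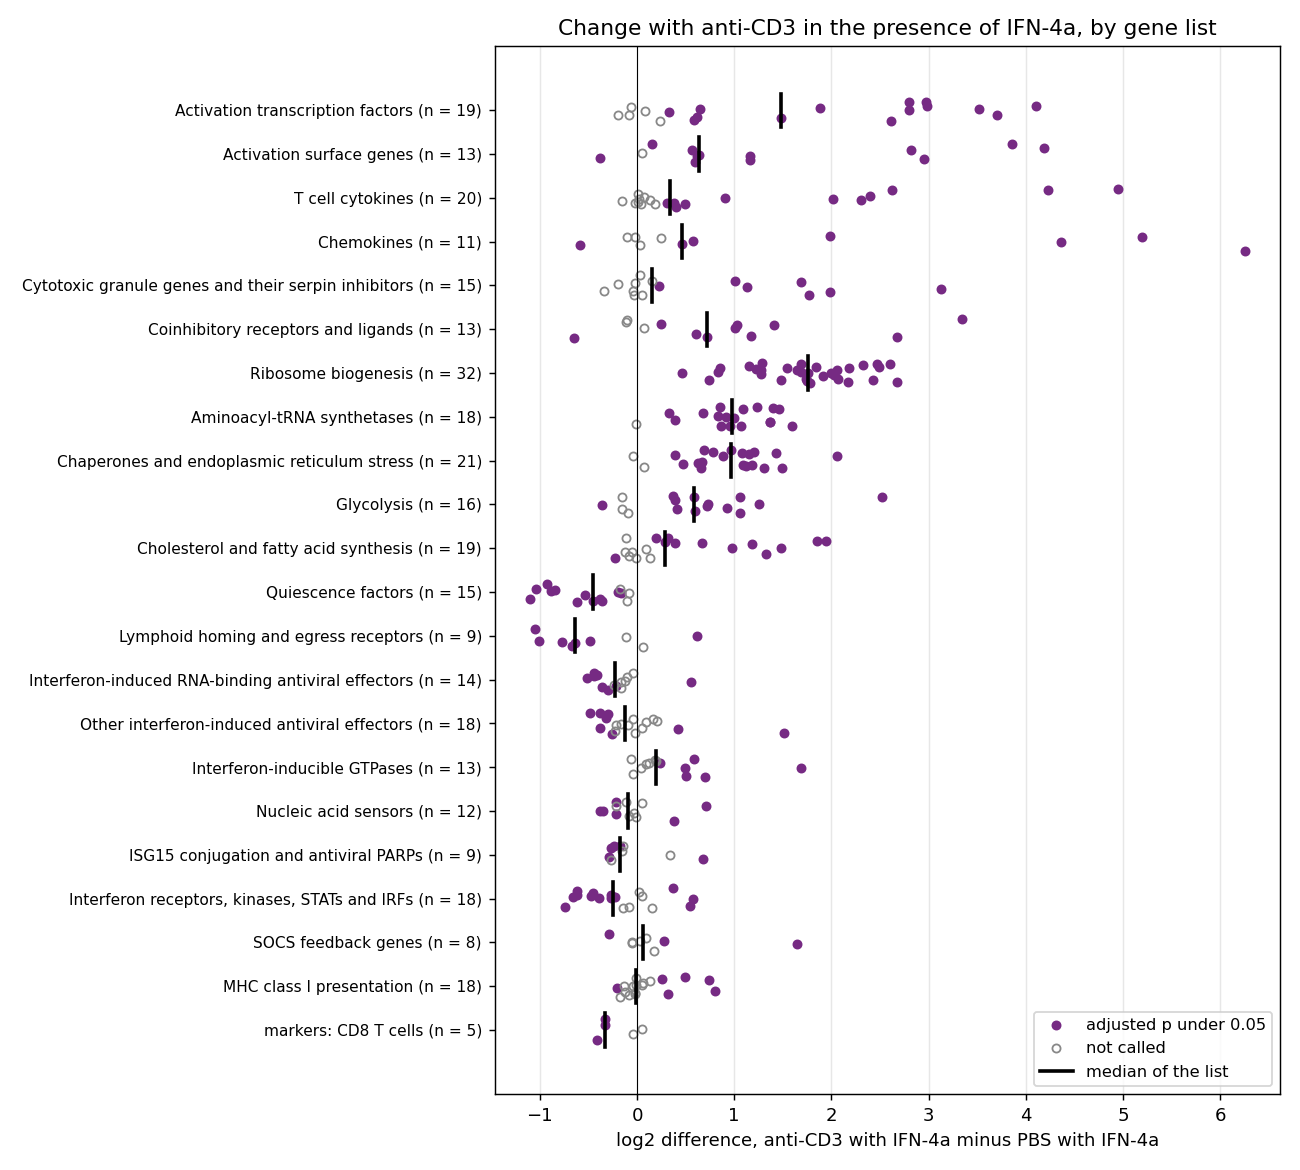
Change of each measured gene with anti-CD3 in the presence of IFN-4a (log2 difference of means of 3 and 3 arrays), by gene list; filled points passed an adjusted p under 0.05, open points did not, and black bars are list medians, with vertical scatter only for legibility. Activation and growth lists lie mostly to the right, quiescence and homing to the left, and the interferon-induced lists close to 0 with medians from -0.23 to 0.20 (-0.42 to 0.23 under quantile normalization).

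The change that anti-CD3 made in the presence of IFN-4a was then set against the change it made without, from the other 6 arrays. Without IFN-4a 3052 genes rose (13.8%) and 3996 fell (18%). The raised genes of both settings numbered 2441, which is 86.2% of those raised with and 80.0% of those raised without IFN-4a, and the lowered genes of both 2693, 81.6% and 67.4% of the respective sets. Across the 22180 genes, which are not independent replicates, the changes had a Pearson r of 0.903 and a Spearman rho of 0.678, with no array in common. The test of the difference between the changes, with IFN-4a minus without, called 209 genes (0.942%), of which 66 were higher (0.298%) and 143 lower (0.645%). Under quantile normalization 75 were lower. Leaving out any of 8 of the 12 arrays took the higher calls to between 30 and 41: the second stimulated array (31), the first (37) and second (30) mock arrays, each array of anti-CD3 alone (32, 36 and 41) and the second (35) and the third (39) PBS arrays.

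**Figure D5:**
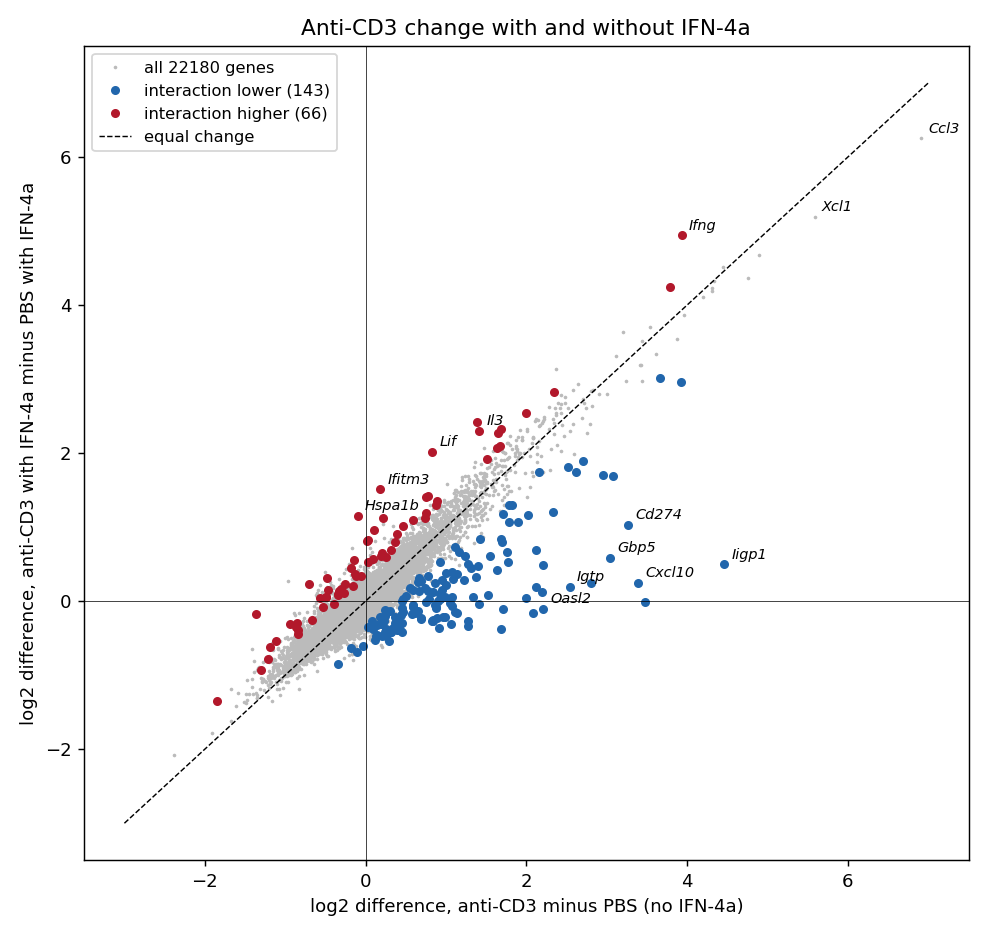
Change of each of 22180 genes with anti-CD3 in the presence of IFN-4a (vertical, log2) against its change without IFN-4a (horizontal, log2), each from 3 and 3 arrays; blue and red mark the 143 and 66 genes whose changes differed at an adjusted p under 0.05, and the dashed line is equal change. Most genes lie along the line; Iigp1, Cxcl10 and Gbp5 lie at 4.46, 3.39 and 3.04 without and at 0.50, 0.25 and 0.58 with IFN-4a.

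Of the 143 genes whose change was lower with IFN-4a, anti-CD3 alone raised 130 and lowered 1. With IFN-4a it raised 49 and lowered 42, and 52 did not pass. The median change was 0.91 without and 0.00049 with IFN-4a, and since the genes were picked by the difference of these changes, their gap is no separate result. In PBS cells IFN-4a raised 4.25% and lowered 8.37% of all genes, among them 138 of the 143 raised and none lowered. That comparison uses the mock and the PBS arrays, which also chose the 143 genes, so it is no separate support. The largest difference was that of Iigp1 (Entrez gene 60440), whose product is an immunity-related GTPase. It read -4.35, -4.55 and -4.36 on the PBS arrays, 0.02, -0.02 and 0.12 with anti-CD3 alone, -0.15, 0.03 and -0.19 with PBS and IFN-4a, and 0.33, 0.34 and 0.52 with both. Anti-CD3 raised it by 4.46 without and by 0.50 with IFN-4a, a difference of -3.96 (SE 0.11, limma adjusted p = 2.38e-10). The PBS arrays stood alone, and the other 9 arrays lay between -0.19 and 0.52. Of the 13 GTPase genes, 12 showed a lower change with IFN-4a, beside 0.645% of all genes. The list's median change was 2.19 without and 0.20 with IFN-4a. In PBS cells the median change of these 13 genes with IFN-4a was 2.22, a comparison that shares the PBS arrays with the change without IFN-4a and the mock arrays with the change in its presence.

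Cxcl10 (Entrez gene 15945), a chemokine gene for activated T cells, took intermediate values. It read -4.36, -4.23 and -4.26 with PBS, -0.86, -0.77 and -1.06 with anti-CD3 alone, 1.04, 1.05 and 0.77 with PBS and IFN-4a and 1.08, 1.31 and 1.20 with both. Its change was 3.39 without and 0.25 with IFN-4a, which itself did not pass (-0.07 under quantile normalization), and the difference was -3.14 (SE 0.13, limma adjusted p = 1.65e-08). Here anti-CD3 alone stayed below both IFN-4a groups, unlike Iigp1. Cd274 (Entrez gene 60533), the PD-L1 gene, read -2.76, -2.91 and -2.72 with PBS, 0.55, 0.48 and 0.39 with anti-CD3 alone, -0.56, -0.39 and -0.68 with PBS and IFN-4a, and 0.48, 0.43 and 0.56 with both. Anti-CD3 raised it by 3.27 without and by 1.03 with IFN-4a, a difference of -2.24 (SE 0.11, limma adjusted p = 6.82e-08), and the 2 anti-CD3 groups overlapped. Gbp10 at -2.56, Gbp5 at -2.45, Igtp at -2.34, Oasl2 at -2.31, H2-T24, a class Ib gene, at -2.24 and Irgm1 at -2.07 followed on the same scale of differences.

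Smaller differences were measured for Ifit1 and Irf7. The difference was -1.28 for Ifit1 (SE 0.10, limma adjusted p = 8.66e-06), whose change turned from 0.91 without to -0.36 with IFN-4a, and -1.11 for Irf7, from 0.89 to -0.23. Under quantile normalization these differences were -0.32 (adjusted p = 0.338) and -0.31 (adjusted p = 0.104), so neither call was kept. Those of Oas2 and Dhx58, -0.75 and -0.58, became 0.12 (adjusted p = 0.799) and 0.14 (adjusted p = 0.549) there. That normalization forces the same distribution of row-centred values on every array. In all, 27 of the 61 genes named by rule and called in this test lost their call under it. Cd69, Il2ra, Gbp11, Usp18 and Ifih1 were among them, while Iigp1, Cxcl10, Cd274, Oasl2, Igtp and Gbp5 kept theirs. The call of Il2ra also ended without any 1 of 9 arrays, all except the first stimulated, the third mock and the first PBS array (highest limma adjusted p = 0.0682, log2 -0.89, without the second mock array). Over the same 66 antiviral genes the difference was called lower for 34 and higher for 2, beside 0.645% and 0.298% of all genes. Under quantile normalization every RNA-binding effector among the 34 except Oasl2 lost the call. So did Cmpk2, Xaf1, Slfn8, Gbp11, Ifih1, Dhx58, Usp18, Parp12 and Uba7, and Oas1g of the 2 higher. Rsad2 and Mx1 had no called difference, at -0.10 (95% interval -0.43 to 0.23) and -0.07 (-0.35 to 0.21).

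A smaller group had a higher signed change with IFN-4a, which can be a larger increase or a smaller decrease. Slc6a19, at -1.85 without and -1.34 with IFN-4a, was of the second kind. Of the 66 genes with a higher change, anti-CD3 raised 42 and lowered 11 with IFN-4a, and raised 26 and lowered 27 without it. In PBS cells IFN-4a raised 7 and lowered 49 of them, again over arrays that chose the genes. Ifitm3 led, from 0.18 without to 1.51 with IFN-4a, a difference of 1.33 (SE 0.10, limma adjusted p = 4.39e-06). Its PBS arrays read -0.81, -0.81 and -1.03 and its anti-CD3 arrays -0.73, -0.76 and -0.62, and the change of 0.18 did not pass (limma adjusted p = 0.0682). Ifng read -1.89, -2.03 and -2.12 with PBS and 1.80, 1.92 and 2.04 with anti-CD3 alone, and its increase of 3.93 without IFN-4a was smaller by 1.01 (SE 0.13, limma adjusted p = 0.00112). Lif (Entrez gene 16878), a cytokine gene of the interleukin-6 family, read 1.6, 1.71 and 1.42 with both agents and 0.38, 0.27 and 0.30 with anti-CD3 alone, against PBS values of -0.55 to -0.36 with and -0.67 to -0.27 without IFN-4a. Its difference was 1.19 (SE 0.14, limma adjusted p = 0.000504). In Ifng and Lif the IFN-4a and PBS mock groups lay close together, and the groups with anti-CD3 stood apart from each other.

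Il3, a growth factor gene of blood cells, differed by 0.89 (limma adjusted p = 0.00126) and Lipg, a lipase gene, by 1.04. Gzmc differed by 0.92 (limma adjusted p = 0.0164), a call that ended without the second mock array (log2 0.89, adjusted p = 0.0541). Hspa1b, an inducible heat shock gene with a near-identical neighbour, differed by 1.25 (limma adjusted p = 0.00832), with 1.18, 1.45 and 0.69 on the stimulated arrays and -0.25 to 0.13 on all 9 others. Gzmb at 0.75 (95% interval 0.03 to 1.48, limma adjusted p = 0.435), Tnf at -0.08 (-0.33 to 0.16), Il2 at 0.34 (-0.08 to 0.75) and Ccl3 at -0.66 (-1.33 to 0.01) had no called difference. Nr4a1 at 0.08 (-0.24 to 0.39), Egr2 at -0.27 (-0.44 to -0.10, limma adjusted p = 0.18) and Tbx21 at 0.13 (-0.18 to 0.43) had none either. Of the 19 activation transcription factors 1 had a called difference, Jun at -1.04, and of the 13 activation surface genes 3 had one, Il2ra and Cd69 lower and Tfrc higher. In ribosome biogenesis none of 32 genes had a called difference, and the median difference was 0.19. Over all genes 0.942% had a called difference, so none of 32 is near that share and is no result about the list.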

How the data were processed

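The authors deposited log2 expression values of 12 arrays, hybridised with biotin-labelled RNA per the labels' protocols, already normalized and centred by row. No source used here gives the log base, the normalization or the summary method, and log2 is an assumption. Row medians lay within 5e-07 of 0. Of 33793 rows, 23521 with 1 gene symbol were kept, 1814 with several and 8458 with none were left out, and the rows of 1082 genes with several were averaged, which left 22180 genes. Symbols came from the platform annotation, and 23328 of the kept rows were found by Entrez identifier in the RefSeq table of genes.

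Group means over all 4 groups were fitted with limma 3.58.1 in R 4.3.3 (lmFit, contrasts, eBayes; two-sided tests), which gave 8 residual and 5.18 prior degrees of freedom, and p-values were adjusted by the Benjamini-Hochberg method over all genes. A gene was called at an adjusted p under 0.05, and intervals are 95% intervals of the moderated fit, not adjusted. The fit was also run on simulated data with independent noise and changes planted in the anti-CD3 with IFN-4a arrays. Only the change with IFN-4a was checked there, not the difference between the changes with and without it. Arrays have no counting depth, and 3 per group limit the precision.

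Genes were named by rule: the 15 called genes with the largest increase and decrease and no overlap, the 8 largest called differences of each direction between the settings, the 4 largest changes in each list, all members of the interferon lists, and check genes, with antigen receptor segments, predicted genes and small RNAs passed over. Outside the rule, Fos, Jun, Jund, Junb, Batf, Batf3, Nfatc2, Nfkbia, Tnfrsf18, Ctla4, Il18r1, Il7r, Il17a, Ccl5, Gzma, Gzmk, Slc2a3, Dusp1, Themis, Klf2, Ccr7, Itgal, B2m, H2-K1, Tap2 and Nlrc5 were named after their values were seen. The comparison, the 40 lists and the tests were chosen with earlier results of these data known. Alternatives were other row choices, only the groups compared, quantile normalization, median centring, array weights, robust variance, a replicate block, rows at 8 or above, and leaving out each array.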

Additional observations from a re-analysis of the deposited data

Results flagged for a closer look

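The effect of anti-CD3 differed between cells with and without IFN-4a for 61 of the genes named by rule. The call was by limma's test of the difference itself at an adjusted p under 0.05. Of these genes, 47 had a lower and 14 a higher change in the presence of IFN-4a. Jun, named outside the rule with a called difference given above, is not among them. Values are the change with minus the change without IFN-4a on the log2 scale, from 3 arrays a group, and all 61 are listed here. Under quantile normalization 27 of the 61 calls were lost. They were Ifit1, Isg20, Oas1b, Oas1g, Oas2, Oas3, Eif2ak2, Adar, Cmpk2, Xaf1, Slfn8, Gbp11, Ifih1, Dhx58, Usp18, Parp12 and Uba7 among antiviral genes. The others were Irf7, Stat2, Rel, Casp4, Cd69, Il2ra, Tnfsf8, Id3, Slc6a19 and Vmn1r20. Outlying arrays were not sought, since groups of 3 are too small for that test.

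Among interferon-inducible GTPases the differences were Iigp1 at -3.96, Gbp10 at -2.56, Gbp5 at -2.45, Igtp at -2.34, Irgm1 at -2.07, Irgm2 at -1.95, Gbp7 at -1.94, Gbp4 at -1.71, Gbp3 at -1.43, Gbp8 at -1.42, Gbp11 at -1.39 and Gbp9 at -1.14. RNA-binding effectors gave Oasl2 at -2.31, Ifit1 at -1.28, Isg20 at -0.93, Oas1b at -0.87, Oas3 at -0.78, Eif2ak2 at -0.77, Oas2 at -0.75 and Adar at -0.39, and other effectors Bst2 at -1.45, Xaf1 at -1.09, Samhd1 at -0.97, Cmpk2 at -0.91, Slfn8 at -0.81 and Trim21 at -0.74. Sensors gave Zbp1 at -1.82, Ifih1 at -1.28 and Dhx58 at -0.58, and genes of ISG15 conjugation and PARPs Parp9 at -1.54, Usp18 at -1.29, Parp14 at -1.25, Parp12 at -1.10 and Uba7 at -0.68. In interferon signalling they were Irf7 at -1.11, Irf9 at -1.10, Irf1 at -0.77, Stat2 at -0.67 and Stat3 at -0.44. Outside the antiviral lists the lower differences were Cxcl10 at -3.14, H2-T24 at -2.24, Cd274 at -2.24, Il2ra at -0.97, Casp4 at -0.90, Tnfsf8 at -0.87, Cd69 at -0.85 and Rel at -0.53.

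The higher differences were Ifitm3 at 1.33, Ifng at 1.01, Lif at 1.19, Il3 at 0.89, Gzmc at 0.92, Oas1g at 0.70, Hspa1b at 1.25, Lipg at 1.04, Tfrc at 0.48, Ubash3b at 0.62, Id3 at 0.51, Crtam at 0.46, Slc6a19 at 0.51 and Vmn1r20 at 0.94. Some calls ended when 1 of the 12 arrays was left out, with differences close to those above. The number of arrays that ended the call, and the difference where its adjusted p was highest, were Crtam (10 arrays, 0.42), Slc6a19 (9 arrays, 0.50), Vmn1r20 (10 arrays, 0.90), Gzmc (1 array, 0.89), Oas1g (7 arrays, 0.67), Adar (10 arrays, -0.38), Stat3 (3 arrays, -0.42), Il2ra (9 arrays, -0.89) and Ubash3b (2 arrays, 0.59). Those highest adjusted p-values ran from 0.0526 (Stat3) to 0.107 (Crtam).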

How the results depend on the processing

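Of 184 genes named by rule whose change with IFN-4a was called, 165 kept the call under every alternative run. Of 19 that lost it at least once, 18 did when 1 array was left out and 3 under quantile normalization. Called genes numbered 2596 to 2846 higher and 2907 to 3383 lower when each array was left out in turn. The difference between the changes with and without IFN-4a was less stable. Its calls numbered 30 to 62 higher and 107 to 145 lower with 1 array left out, 121 higher with array weights, 199 higher with only rows at 8 or above before centring, and 75 lower under quantile normalization. Of 61 genes named by rule and called in the main test of this difference, 30 kept the call in every alternative and 27 lost it under quantile normalization. With that normalization Oas2 and Dhx58 turned to 0.12 and 0.14 (limma adjusted p = 0.799 and 0.549). That normalization gives all arrays the same distribution of row-centred values, so a lost call may come from the normalization or from the data. The cause was not tested. With the replicate number as a block 2856 genes were higher and 3386 lower with IFN-4a, and 72 and 149 in the difference. Whether the numbers pair the arrays cannot be told from these values, since the deviations are from means of only 3 arrays. Deviations of same-numbered arrays correlated at 0.0749, -0.0718 and -0.00443, and those of differently numbered arrays at -0.184 to 0.161. The labels do not say that a number is shared. Row-centred values hold no signal over background, so dim genes could not be set apart except through the 7114 rows at 8 or above.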
